A study of Mus musculus with 8 samples.

Results

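Input RNA from p53-/- mouse embryonic stem (ES) cells treated with Adriamycin was compared with input RNA from p53+/+ ES cells given the same treatment, to describe across genes how the genotypes differ under DNA damage. The comparison uses 2 of the 8 libraries in the series, 1 of each genotype, and 11832 of the 23560 genes in the tables, namely those with a mean of 1 FPKM or more over the 8 libraries. Because there was 1 library a side, no difference below has a replicate check and no p-value was computed. FPKM (fragments per kilobase of transcript, scaled to the number of fragments sequenced) is the level per length deposited by the authors. Levels below are FPKM as deposited; where a pair of inputs is given, the first value is without and the second with Adriamycin. A second quantity, called a "difference", is log2(scaled FPKM + 1) in p53-/- minus p53+/+, so that a negative value means lower in p53-/- cells. A gene was counted as lower or higher when its difference reached 1 in size, which for a gene well above 1 FPKM is a change by a factor of 2.

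Both cultures were ES cells of a C57BL/6 and 129Sv mix at fewer than 20 passages, grown in serum with leukemia inhibitory factor; no feeder layer is named. The genotypes are p53+/+ and p53-/-, and the labels do not describe the p53-/- allele; both cultures had received 0.5 uM of Adriamycin over 8 hours. This drug, doxorubicin, traps topoisomerase II and so breaks DNA. The other libraries used for side-by-side values are the untreated inputs of the same genotypes and RNA immunoprecipitated (RIP) from treated and untreated cells of each genotype through hnRNP L, a protein that binds RNA and regulates splicing. How many clones the p53-/- line stands for is not stated, and any property of the 1 line used cannot be told apart from loss of p53.

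p53 is a transcription factor that is kept scarce by the ubiquitin ligase Mdm2 and accumulates when DNA is broken. It binds response elements near its target genes and raises transcription of genes for cell cycle arrest, cell death, DNA repair and metabolism, and of Mdm2 itself, which closes a negative feedback loop. In mouse ES cells p53 is also known to take part in leaving the pluripotent state after damage.

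All 10 ES cell markers searched, Pou5f1, Sox2 and Nanog among them, were present in both treated inputs at no less than 26.3 FPKM each. Coverage on annotated transcripts amounted to 5.67 Gb in the p53+/+ and 7.48 Gb in the p53-/- treated input, within a range of 5.67 to 7.48 Gb for the 4 inputs and 3.21 to 4.94 Gb for the 4 RIP libraries. The median difference over all genes compared was 0.05. Trp53 RNA stood at 235.9 and 173 FPKM in the p53+/+ pair versus 140 and 121 in the p53-/- pair, a treated difference of -0.47. The FPKM of a whole transcript does not show whether a deleted stretch was read, so it does not check the genotype label.

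Loss of p53 went with more genes lower than higher in treated cells. In the treated input 1279 genes were lower in p53-/- (10.8% of those compared) and 919 were higher (7.77%), so that 58.2% of the 2198 differing genes were lower. The asymmetry was wider at cutoffs of 2 and 3: 370 genes were lower by 2 or more and 129 higher, and 93 were lower by 3 or more and 34 higher. It was not wider at 4 or more, where 18 genes were lower and 15 higher, 8 of these 15 being short noncoding RNAs. With a pseudocount of 5 in place of 1 the counts were 575 lower and 371 higher, with one of 0.1 they were 1714 lower and 1425 higher, and with a filter at a mean of 5 FPKM they were 692 lower and 635 higher, so that the lower share was then 52.1%. Without Adriamycin, 289 genes were lower (2.44%) and 381 higher (3.22%) in p53-/- input.

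Of the genes lower in treated p53-/- cells, a larger share than of all genes differed before treatment, though most were then close. Of the 1279, 705 (55.1%) had an untreated difference under 0.5 in size, against 76% of all genes compared, 363 (28.4%) were lower by 0.5 to 1, and 186 (14.5%) were already lower by 1 or more, against 2.44% of all genes. The 919 higher genes more often carried their difference from the untreated state: 265 (28.8%) were already higher by 1 or more and 340 (37%) by 0.5 to 1, against 298 (32.4%) under 0.5. The median untreated difference was -0.42 for the lower genes and 0.70 for the higher genes, whose treated medians were -1.55 and 1.30.

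**Figure D1:**
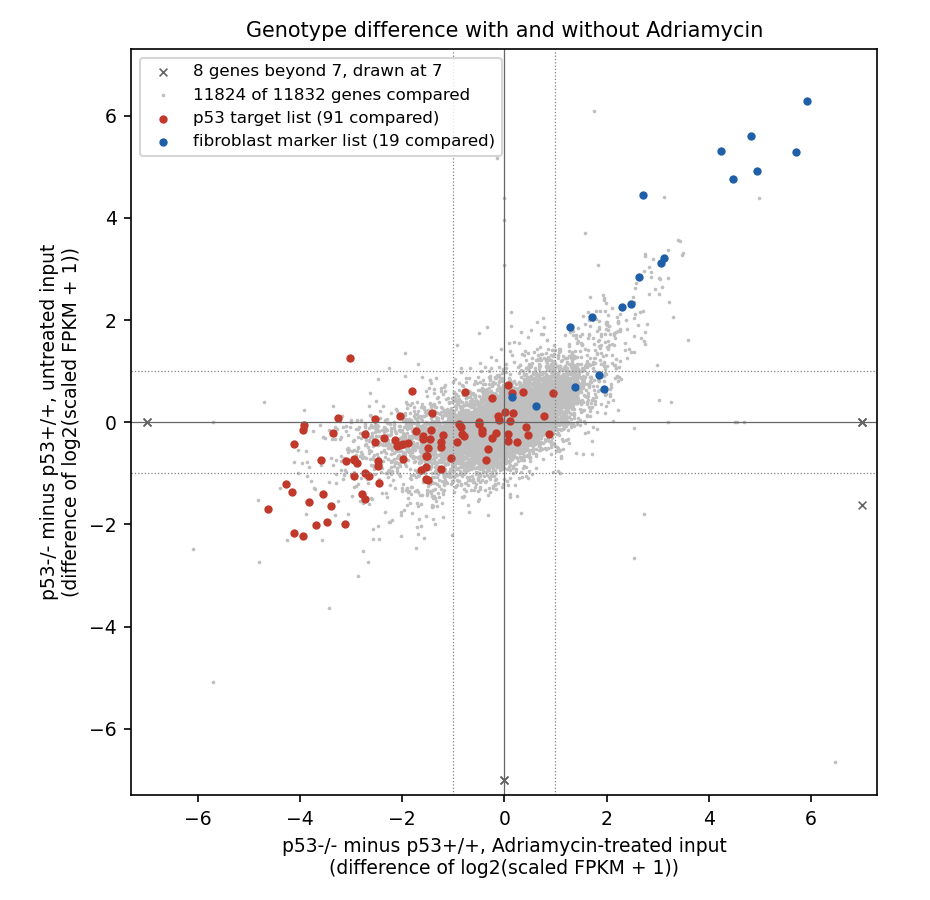
Difference between p53-/- and p53+/+ in the treated input (x axis) and the untreated input (y axis), both as log2(scaled FPKM + 1), 1 point per gene, with dotted lines at a difference of 1 and 8 genes beyond 7 drawn at the edge. The p53 target list spreads to the left, with 19 of its 91 genes also lower by 1 or more in untreated input, while the fibroblast marker list lies near the diagonal at the upper right.

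The genes named here are the lowest under the naming rule given with the processing below. That rule leaves out short noncoding RNAs and asks for the same direction in treated RIP. It leaves out some of the 18 genes lower by 4 or more. The lowest gene it admits was 1700007K13Rik, an uncharacterised gene at chr2:28317521-28321844 (coordinates of genes are mm9). It stood at 14.6 and 305.5 FPKM in the p53+/+ pair versus 1.55 and 2.97 in the p53-/- pair, a treated difference of -6.09. The bounds the authors gave for its treated levels were 298 to 313 FPKM and 2.30 to 3.63 FPKM. The treated p53+/+ library alone was high, and both p53-/- libraries lay below both p53+/+ libraries.

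Dcxr, which encodes a dicarbonyl and xylulose reductase (chr11:120586687-120588595), stood at 15.0 and 218 FPKM in the p53+/+ pair versus 4.36 and 6.05 in the p53-/- pair without and with Adriamycin, a treated difference of -4.83. Psrc1, whose product binds microtubules, stood at 78.9 and 226 FPKM in the p53+/+ pair versus 10.8 and 6.50 in the p53-/- pair, with a treated difference of -4.80. Ptp4a3, a protein tyrosine phosphatase, stood at 19.01 and 163.5 FPKM against 5.02 and 5.12 FPKM, with a difference of -4.62. All of these were lower in p53-/- cells before treatment too, with untreated differences of -2.74 to -1.53, and in all of them the treated p53+/+ library was above the untreated one.

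Plk2, a polo-like kinase gene, stood at 7.43 and 101 FPKM in the p53+/+ pair versus 2.52 and 3.70 in the p53-/- pair (difference -4.28). Eng, the TGF-beta co-receptor endoglin, stood at 12.4 and 72.0 FPKM against 1.47 and 2.34 FPKM (difference -4.25). Trp73, which encodes the p53 relative p73, stood at 0.652 and 22.8 FPKM in the p53+/+ pair versus 0.0361 and 0.0378 in the p53-/- pair (difference -4.03). Nearly all of the Trp73 level in treated p53+/+ cells came from 1 transcript record, at 22.3 FPKM, out of 3 records. Nkx2-9, a homeobox gene, stood at 1.23 and 23.6 FPKM against 0.152 and 0.147 FPKM (difference -3.97).

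The remaining members of the 15 lowest under the naming rule were Tmem40, D630023F18Rik, Zfp365, Trp53inp1, Pm20d1, Tap1 and Azin2, with differences from -4.71 to -4.04. In each of them the treated p53+/+ library was the highest of the 4 inputs. Tmem40 has 3 records at one locus, of which 1 carried 36.2 of its 41.2 FPKM in treated p53+/+ input, and its untreated p53+/+ level was listed at nearly 0.

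**Figure D2:**
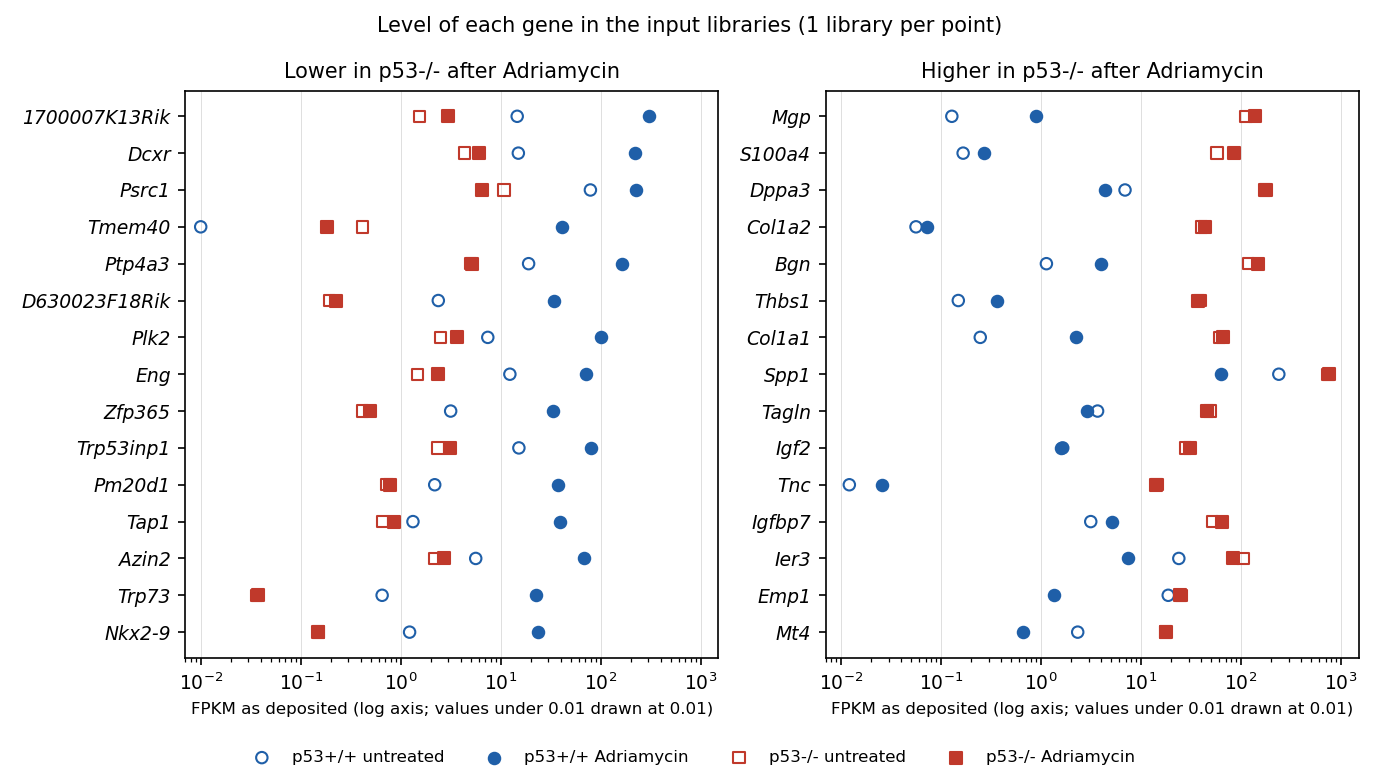
FPKM as deposited (log axis) in the 4 input libraries for the 15 genes with the largest negative and the 15 with the largest positive differences chosen by the naming rule, 1 point per library, with values under 0.01 drawn at 0.01. On the left the treated p53+/+ point stands apart above the other 3; on the right both p53-/- points stand above both p53+/+ points for every gene.

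Promoter sequence is shown for 5 of the lower genes whose upstream window holds a match to the 10-base p53 consensus element. This is the unit that occurs in a pair in a full p53 response element. Whether p53 binds at these matches was not tested. The sequences are RefSeq promoter entries of build GRCm38.p6, 5′ to 3′ on the strand of the gene, and capitals mark the matches. They lie at chr2:28466366-28466455 (minus strand), chr1:65123284-65123373 (minus), chr10:117710895-117710984 (minus), chr11:40755422-40755511 (minus) and chr17:29090866-29090955 (plus) in the order given.
1700007K13Rik: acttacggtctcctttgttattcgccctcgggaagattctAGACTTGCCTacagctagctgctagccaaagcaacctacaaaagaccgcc
D630023F18Rik: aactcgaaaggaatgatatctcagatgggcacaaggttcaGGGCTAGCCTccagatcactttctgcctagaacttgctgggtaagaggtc
Mdm2: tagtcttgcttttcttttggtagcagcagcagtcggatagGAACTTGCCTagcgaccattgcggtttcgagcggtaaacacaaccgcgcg
Ccng1: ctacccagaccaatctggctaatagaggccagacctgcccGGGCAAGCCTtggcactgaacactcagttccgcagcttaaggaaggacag
Cdkn1a: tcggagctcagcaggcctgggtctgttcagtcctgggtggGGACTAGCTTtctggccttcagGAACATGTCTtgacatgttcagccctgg
The matches begin 91, 119, 186, 185 and 73 bases before the annotated start, and the Cdkn1a window holds a second match inside the printed stretch.

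The element reads the same pattern on both strands, and it was searched from 250 bases before to 50 bases after each annotated start. It was present in 8.36% of all 32851 promoter entries and at 8.1% of the 9348 compared genes that have one. It was present at 110 of 1023 lower genes (10.8%), at 40 of the 284 genes lower by 2 or more (14.1%), and at 54 of 694 higher genes (7.78%). A pair of elements was found at 6 of the 9348 compared genes, 3 of the 1023 lower genes and 1 of the 694 higher genes. These shares describe letters in a short window, and most lower genes had no match there.

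Genes known as p53 targets were lower in treated p53-/- cells in most functional groups. The target list was chosen with earlier results of these data known. It holds Ptp4a3, Plk2, Zfp365, Trp53inp1 and Tap1 from the lowest genes above, so its direction is not a separate finding. Tap1 passed the filter only through the p53+/+ libraries. Of 97 targets listed, 95 were in the tables and 91 were compared: 60 were lower, where 10.8% of all genes were, and 0 were higher, where 7.77% of all genes were. Their median difference was -1.60, against -0.38 without treatment, when 19 were lower and 1 was higher. Their summed FPKM in the inputs was 3381 and 6783 in untreated and treated p53+/+ cells and 2356 and 2587 in p53-/- cells. The counts of every list below are to be read beside the shares of all genes, 10.8% lower and 7.77% higher.

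Among genes that control p53 itself, 8 of 9 compared were lower (median -1.88). Mdm2, the ubiquitin ligase that degrades p53 (chr10:117125961-117147772), stood at 25.5 and 221 FPKM in the p53+/+ pair versus 14.8 and 16.5 in the p53-/- pair. Its treated difference was -3.59 and its untreated difference -0.74. Ccng1, cyclin G1, which recruits a phosphatase to Mdm2, stood at 40.7 and 169 FPKM against 9.60 and 13.5 FPKM, with a treated difference of -3.47. Ppm1d, the phosphatase that dampens damage signalling, had a difference of -1.88 (29.4 against 6.70 FPKM), and Mdm4, the Mdm2 partner, of -1.54 (6.61 against 1.29 FPKM). Cop1, another ubiquitin ligase for p53, was the exception at 0.24.

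Among cell cycle arrest targets, 8 of 11 were lower (median -1.73). Cdkn1a, the cyclin-dependent kinase inhibitor p21 (chr17:29227931-29237667), stood at 24.1 and 104 FPKM in the p53+/+ pair versus 21.5 and 29.4 in the p53-/- pair. The untreated levels were close, with a difference of -0.17, and the treated difference was -1.73. Btg2, an antiproliferative gene, stood at 11.4 and 103.5 FPKM against 3.03 and 5.80 FPKM (treated difference -3.82). Sfn (14-3-3 sigma), Plk3 and Ccnk did not reach 1, at -0.77, -0.10 and 0.16.

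Among apoptosis targets, 11 of 15 were lower (median -1.54). Phlda3, an inhibitor of Akt signalling, stood at 34.0 and 163 FPKM in the p53+/+ pair versus 6.29 and 8.91 in the p53-/- pair, a treated difference of -3.95. Bbc3 (Puma), a BH3-only killer, stood at 11.3 and 44.1 FPKM against 1.82 and 2.00 FPKM (difference -3.69). Apaf1, the caspase-activating scaffold, had a difference of -3.10 and Pmaip1 (Noxa) of -2.48. Bax, the pore-forming member of the Bcl2 family, was expressed far higher than these per length, at 335 and 452 FPKM in the p53+/+ pair versus 157 and 149 in the p53-/- pair, and differed by -1.54. Bok, a Bax relative, had the highest value of the group at 0.95.

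Among death receptors and their kinases, 4 of 7 were lower. Fas stood at 0.417 and 23.8 FPKM in the p53+/+ pair versus 0.530 and 1.15 in the p53-/- pair, a treated difference of -3.26 where the untreated one was 0.09. Eda2r, a TNF receptor family member, stood at 5.42 and 15.7 FPKM against 0.380 and 0.529 FPKM (difference -3.11). Tnfrsf1a and Ltbr, other receptors of the TNF family, had differences of 0.15 and 0.08.

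In the metabolic and redox group, 8 of 16 were lower (median -1.23). Cpt1c, a carnitine palmitoyltransferase, had a difference of -3.54 (68.3 against 4.40 FPKM), Slc19a2, the thiamine transporter, of -3.39, and Sesn2, a sestrin that restrains mTORC1, of -2.94. Tigar and Gls2, which act on glycolysis and glutamine, stood at 0.46 and 0.43.

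DNA repair targets were the group with the smallest difference. Of 9 compared, 2 were lower, and the median was -0.25. Ercc5, the XPG endonuclease, stood at 5.74 and 38.1 FPKM in the p53+/+ pair versus 2.996 and 3.58 in the p53-/- pair (difference -2.94), and Polk, a translesion polymerase, had a difference of -2.04. Ddb2 and Xpc, damage sensors of nucleotide excision repair, stood at -0.17 and -0.12, and Pcna, the sliding clamp, at 0.87.

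The remaining targets, of membrane, vesicle and other functions, were lower in 19 of 24 cases (median -1.84). They include Zfp365, a zinc finger protein gene (difference -4.16), Slc4a11, a membrane transporter gene (-3.94), Def6, a guanine nucleotide exchange factor (-2.79), and Notch1 (-1.21).

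Among the genes of the treated pair that hardly differed before treatment, the largest negative differences included Slc4a11, Sytl1, Them5, Ppp1r36, Cpz and Rgs14. Slc4a11 stood at 4.65 and 94.3 FPKM in the p53+/+ pair versus 4.04 and 4.66 in the p53-/- pair, with an untreated difference of -0.16. Sytl1, a Rab27-binding protein gene, stood at 0.834 and 37.3 FPKM against 0.766 and 1.06 FPKM (treated difference -3.93, untreated -0.05). Rgs14, a regulator of G protein signalling, stood at 0.600 and 25.6 FPKM against 0.390 and 0.541 FPKM (treated difference -3.75, untreated -0.17). In these genes 3 of the 4 inputs were near one level and the treated p53+/+ input stood alone above them.

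The mirror pattern, with the treated p53+/+ input alone below the others, was seen among higher genes. Emp1, an epithelial membrane protein gene, stood at 18.7 and 1.35 FPKM in the p53+/+ pair versus 25.3 and 24.5 in the p53-/- pair (treated difference 3.26, untreated 0.40). Fgf17, an FGF ligand, stood at 17.8 and 1.44 FPKM against 16.5 and 14.8 FPKM (2.54 and -0.12). Slc7a3, a cationic amino acid transporter, stood at 66.5 and 15.4 FPKM against 79.3 and 74.5 FPKM (2.22 and 0.24). The others of this set were Lpar1, Phlda2, Ramp2, Ddah2 and Cbln1, with treated differences of 1.89 to 2.12. The noncoding record NR_040692, which has no symbol in the annotation used, stood at 34.0 and 5.14 FPKM in the p53+/+ pair versus 46.8 and 50.2 in the p53-/- pair, a treated difference of 3.02.

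Of the 15 genes higher by 4 or more, 8 were short noncoding RNAs, which the naming rule leaves out. The other 7 were of another kind: genes at high level in both p53-/- inputs and at low level in both p53+/+ inputs. Mgp, matrix Gla protein (chr6:136820956-136824326), stood at 0.128 and 0.898 FPKM in the p53+/+ pair versus 112 and 137 in the p53-/- pair, a treated difference of 5.93. Col1a2, a chain of type I collagen, stood at 0.0562 and 0.0722 FPKM against 40.3 and 43.9 FPKM (difference 4.94), and Col1a1, the other chain (chr11:94797584-94813170), at 0.247 and 2.23 FPKM against 61.0 and 65.6 FPKM (4.23). S100a4, a calcium-binding protein gene, Bgn, the proteoglycan biglycan, and Thbs1, thrombospondin, differed by 5.70, 4.82 and 4.47. None of these was as high in any p53+/+ input as in either p53-/- input.

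Dppa3 (Stella), a gene of naive pluripotency and the germline (chr6:122576442-122580289), stood at 6.92 and 4.31 FPKM in the p53+/+ pair versus 172 and 176 in the p53-/- pair (difference 4.99). Spp1, the secreted phosphoprotein osteopontin, stood at 239 and 63.7 FPKM against 739 and 766 FPKM (3.60), and was thus well expressed in p53+/+ cells too. Igf2, an imprinted growth factor, stood at 1.65 and 1.59 FPKM against 27.8 and 31.2 FPKM (3.47).

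Several of the highest genes are markers of fibroblasts, and the whole marker list lay on the same side. The list was chosen with earlier results of these data known. It holds Mgp, S100a4, Col1a2, Bgn, Thbs1 and Col1a1 from above, so its direction is not a separate finding. Of 23 fibroblast markers, 19 were compared, with 17 higher and 0 lower and a median of 2.64; all 23 stood above their treated p53+/+ level. Their summed level was 375 and 306 FPKM in the p53+/+ pair versus 1067 and 1252 in the p53-/- pair. Of the 23, 5 were listed at 0 in each p53+/+ input and 0 in either p53-/- input. Col3a1, Dcn, Lum and Fap were at 0 in both p53+/+ inputs. In treated p53+/+ input 14 of the 23 were under 1 FPKM, so these could not be counted as lower. Some compared markers, such as Col1a2, passed the filter only through the p53-/- libraries. Vim and Sparc, which ES cells express as well, were the markers at high level in both genotypes (57.5 against 218 FPKM and 194 against 289 FPKM). The untreated pair gave a median of 2.84 for the list, with 14 higher. In bulk RNA, more cells of a type and more RNA of its genes per cell cannot be told apart, and the part of other cells in these differences was not tested.

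Related lists held more higher than lower genes, though they did not lie on one side alone. Of 30 other genes for collagens, matrix and matrix remodelling, 14 were higher and 5 lower, and 11 stood below 0. The lower ones were Plod2, Col18a1, Lama1, Col4a1 and Hspg2. Of 25 contractile and serum response genes, 13 were higher and 1, Cald1, was lower. Acta2, smooth muscle actin, stood at 0.0232 and 0.0788 FPKM against 12.0 and 8.61 FPKM (difference 2.76), and Anxa1, annexin A1, had a difference of 3.21.

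Of 19 epithelial genes compared, 8 were higher and 0 lower, with a median of 0.92, and 5 stood below 0, the lowest being Cldn4 at -0.78. Cldn7, a tight junction claudin, stood at 9.35 and 5.94 FPKM in the p53+/+ pair versus 35.0 and 46.8 in the p53-/- pair (difference 2.75). Krt18 and Krt8, keratins of simple epithelia, differed by 2.55 and 2.26, and Cdh1, E-cadherin, by 1.95 (31.1 against 121 FPKM).

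**Figure D3:**
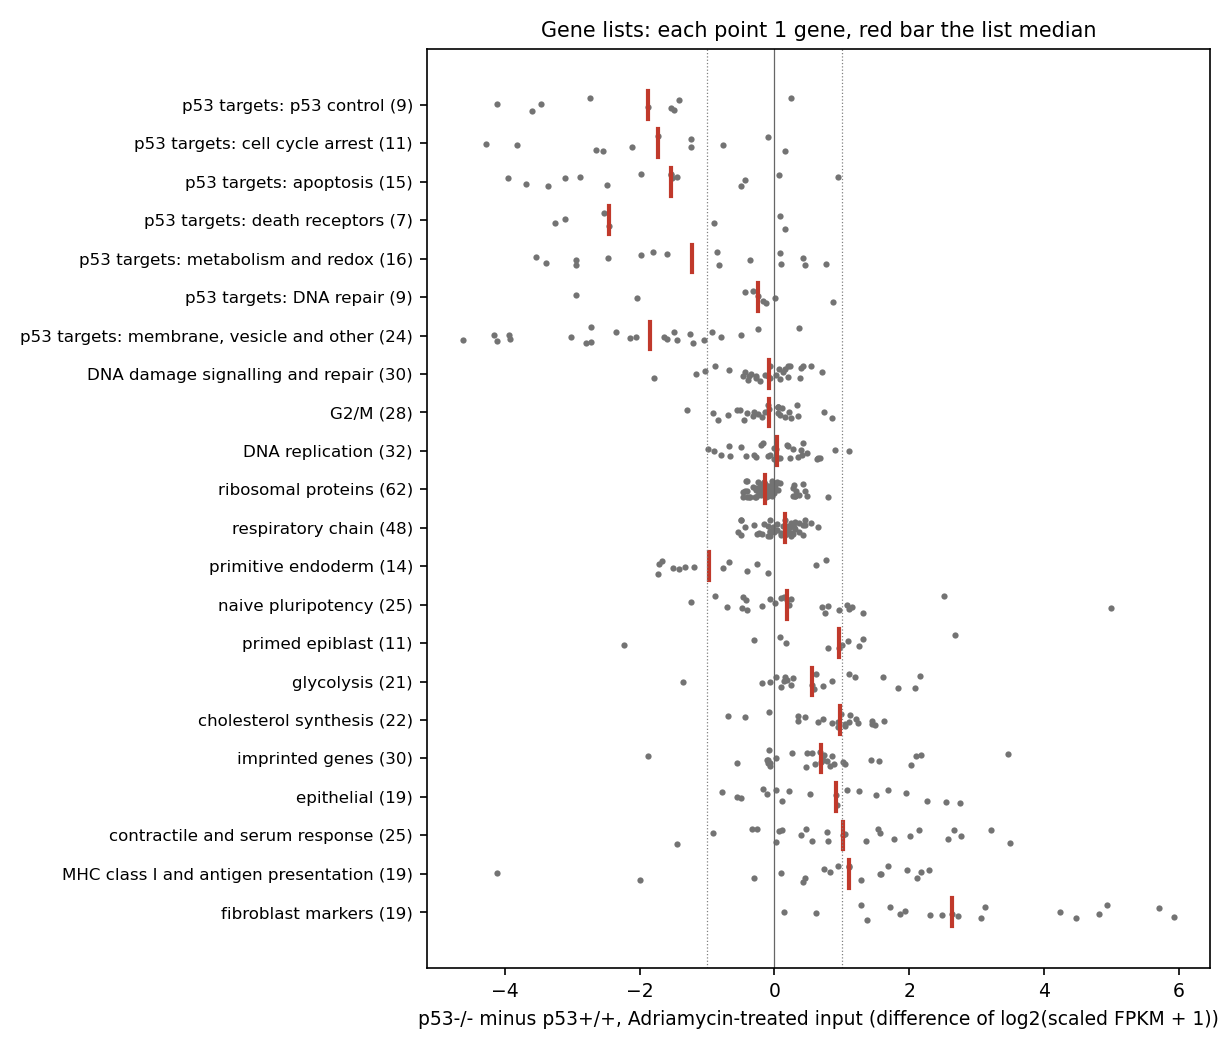
Treated-input difference (x axis, log2(scaled FPKM + 1)) of every compared gene in 22 lists, with the number compared in brackets, a red bar at each list's median and dotted lines at a difference of 1. The p53 target groups lie to the left except DNA repair, ribosomal and respiratory chain genes lie within 1 of 0, and fibroblast markers lie furthest to the right.

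MHC class I genes and their loading machinery split. Of 19 compared, 10 were higher and 2 lower, with a median of 1.11. B2m, the class I light chain, stood at 19.2 and 24.99 FPKM in the p53+/+ pair versus 99.03 and 124 in the p53-/- pair (difference 2.29), and the heavy chains H2-K1 and H2-D1 differed by 2.11 and 1.97. The lower members were Tap1, the peptide transporter, and its neighbour Psmb9, an immunoproteasome subunit. Tap1 stood at 1.33 and 39.1 FPKM in the p53+/+ pair versus 0.661 and 0.860 in the p53-/- pair (difference -4.12), and Psmb9 at 4.50 and 19.03 FPKM against 3.49 and 3.56 FPKM (difference of -2.0). Both were close before treatment, at -0.42 and -0.29. Of 17 interferon and NF-kB genes, 2 were lower, among them Nfkb1 (-1.37), and 3 were higher, namely Oas1a, Irf1 and Ccl2.

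Core pluripotency genes had a median of 0.06, against 0.05 for all genes. Of 15 compared, 1 was lower and 1 higher, where 10.8% and 7.77% of all genes were. Without Adriamycin their median was -0.59 and 14 stood below 0, against a median of -0.02 for all genes. Pou5f1 stood at 1131 and 845 FPKM in the p53+/+ pair versus 755 and 682 in the p53-/- pair (treated difference -0.26). The higher gene was Lin28a, a blocker of let-7 maturation, at 81.9 and 15.3 FPKM against 53.04 and 45.3 FPKM (1.53, untreated -0.63). Of 25 naive pluripotency genes, 6 were higher (Nr0b1, Tcl1, Prdm14, Gdf3, Lefty2 and Dppa3) and 1, Tbx3, was lower. Nanog stood at 164.5 and 54.7 FPKM against 151 and 93.5 FPKM, a treated difference of 0.80.

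Of 11 primed epiblast genes, 4 were higher and 1 lower. Zic2 stood at 4.04 and 0.492 FPKM in the p53+/+ pair versus 15.6 and 10.6 in the p53-/- pair (difference 2.68). Nodal, a TGF-beta ligand of the early embryo, went the other way, at 39.1 and 117 FPKM against 19.5 and 22.9 FPKM (difference -2.23). Its inhibitor Lefty2 was higher, with differences of 2.46 without and 2.52 with Adriamycin (treated levels of 19.9 against 117.5 FPKM).

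Primitive endoderm genes, which mark the extraembryonic lineage that ES cultures can form, had a median of -0.98: of 14 compared, 7 were lower and 0 higher. Gata4 stood at 6.75 and 5.29 FPKM in the p53+/+ pair versus 0.642 and 0.576 in the p53-/- pair (difference -1.72), and Gata6 and Dab2 differed by -1.42 and -1.73. The summed level of 7 defining markers was 29.9 and 22.2 FPKM in the p53+/+ pair versus 3.36 and 3.50 in the p53-/- pair, and 0 of them was at 0 in any input. Of these 7 markers, 4 were compared. In treated p53-/- input 6 of the 7 were under 1 FPKM, so these could not be counted as higher. The untreated pair had a median of -1.22 for the list. Whether the share of such cells differs between the cultures was not tested.

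Of 24 genes of the two-cell-like state and the germline, 6 were lower and 3 higher. The lower ones were Hormad1, a meiotic axis gene (59.7 against 7.51 FPKM, difference -2.73), 3 near-identical Zscan4 genes (-2.26 to -2.20), Gm5662 and Usp17lc.

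Biosynthetic and metabolic lists had positive medians. Of 22 cholesterol synthesis genes, 10 were higher and 0 lower (median 0.97, untreated 0.47). Fdps, which makes farnesyl diphosphate, stood at 161 and 74.2 FPKM in the p53+/+ pair versus 229.5 and 224 in the p53-/- pair (difference 1.62). Of 21 glycolysis genes, 6 were higher and 1, Pfkm, was lower (median 0.55). The higher ones include the glucose transporter Slc2a3, at 352 and 102 FPKM against 390 and 305 FPKM (1.61, untreated 0.14), and the lactate transporters Slc16a1 and Slc16a3 (2.09 and 2.16).

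Of 30 imprinted genes, 8 were higher and 1, Slc22a18, was lower (median 0.69). Besides Igf2 these were Mest, Nnat, Phlda2, Peg10, Snrpn, Dlk1 and Ube3a. Snrpn stood at 87.5 and 30.5 FPKM in the p53+/+ pair versus 86.3 and 82.0 in the p53-/- pair (difference 1.43, untreated -0.03). Of 28 splicing regulators, 4 were higher and 0 lower, Srsf3 by 1.71 (70.7 against 228 FPKM) and Srsf7 by 1.25.

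Cell cycle and housekeeping lists stayed near 0. Of 28 G2/M genes, 1 was lower (Hmmr, -1.29) and 0 higher, and the median was -0.09. Of 32 replication genes 1 was higher (Ccne1, cyclin E1, 1.1), and the median was 0.03. Of 30 genes for damage signalling and repair, 3 were lower: Xrcc1, a scaffold of single-strand break repair (-1.78), H2ax (-1.16) and the checkpoint kinase Chek2 (-1.03), a share close to the 10.8% of all genes. Of 62 ribosomal protein and 48 respiratory chain genes, 0 reached 1 in either direction, with medians of -0.13 and 0.15.

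Signalling and stress lists held differences in both directions, where 10.8% of all genes were lower and 7.77% higher. The lower counts of the Nodal, BMP and FGF list and of the immediate early and stress list were close to that share. Of 19 Wnt pathway genes, 5 were lower, among them the ligands Wnt6 (-2.67) and Wnt9a (-2.12), and 3 were higher, among them the receptor Fzd2 (2.26). Of 27 Nodal, BMP and FGF genes, Nodal and the ligand Bmp7 (-2.16) were lower and 6 were higher. Of 22 immediate early and stress genes, 3 were lower (Fos, Fosl1 and Atf3) and 6 higher, including Ier3 (3.29) and Gadd45b (2.22). Of 23 NRF2 and redox genes, 1 was lower (Srxn1, -1.28) and 5 were higher, among them the metallothioneins Mt2 (2.36) and Mt1 (1.85). Of 5 macrophage and endothelial markers compared, Srgn (-3.43), Laptm5 (-2.76) and Tek (-1.5) were lower, while Pecam1 and Cd34 stood at 0.93 and 0.81. The summed treated level of 9 defining markers of these cells was 23.2 FPKM in p53+/+ and 33.2 FPKM in p53-/- input, with 3 of 9 above their p53+/+ level.

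Some gaps of the untreated state were closed after Adriamycin. Of the 289 genes lower in untreated p53-/- input, 49 (17%) differed by less than 0.5 after treatment, and of the 381 higher, 44 (11.5%). Most kept their gap: 186 of the 289 (64.4%) were still lower by 1 or more, and 265 of the 381 (69.6%) still higher. Gbx2, a homeobox gene, stood at 19.6 and 4.76 FPKM in the p53+/+ pair versus 4.61 and 3.42 in the p53-/- pair, so that the difference was -1.82 before and -0.32 after. Cdkn2b, the kinase inhibitor p15, stood at 1.48 and 14.6 FPKM against 8.09 and 9.68 FPKM (1.74 and -0.49), and Fxyd5, an ion transport regulator, at 2.89 and 16.5 FPKM against 14.3 and 17.5 FPKM (1.88 and 0.12). In each of these the p53+/+ level differed more between the treatments than the p53-/- level did.

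The RIP libraries of treated cells gave the genotype difference in a second preparation of the same cultures, which is not a second culture. There 1687 genes were lower (14.3%) and 1047 higher (8.85%). Of the 1279 lower genes of the input, 1071 (83.7%) were lower by 1 or more in RIP as well and 8 were not lower at all. Of the 919 higher genes, 573 (62.4%) were higher by 1 or more in RIP and 18 were not higher. The genes named as the 15 largest were required to differ by 1 in RIP, so their RIP direction is not a finding. RIP levels depend on pull-down by hnRNP L as well as on abundance: D630023F18Rik stood at 34.0 and 0.227 FPKM in treated p53+/+ and p53-/- input and at 436 and 1.31 FPKM in the matching RIP libraries, and Mdm2 at 221 and 16.5 FPKM in input and 1470 and 88.3 FPKM in RIP.

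**Figure D4:**
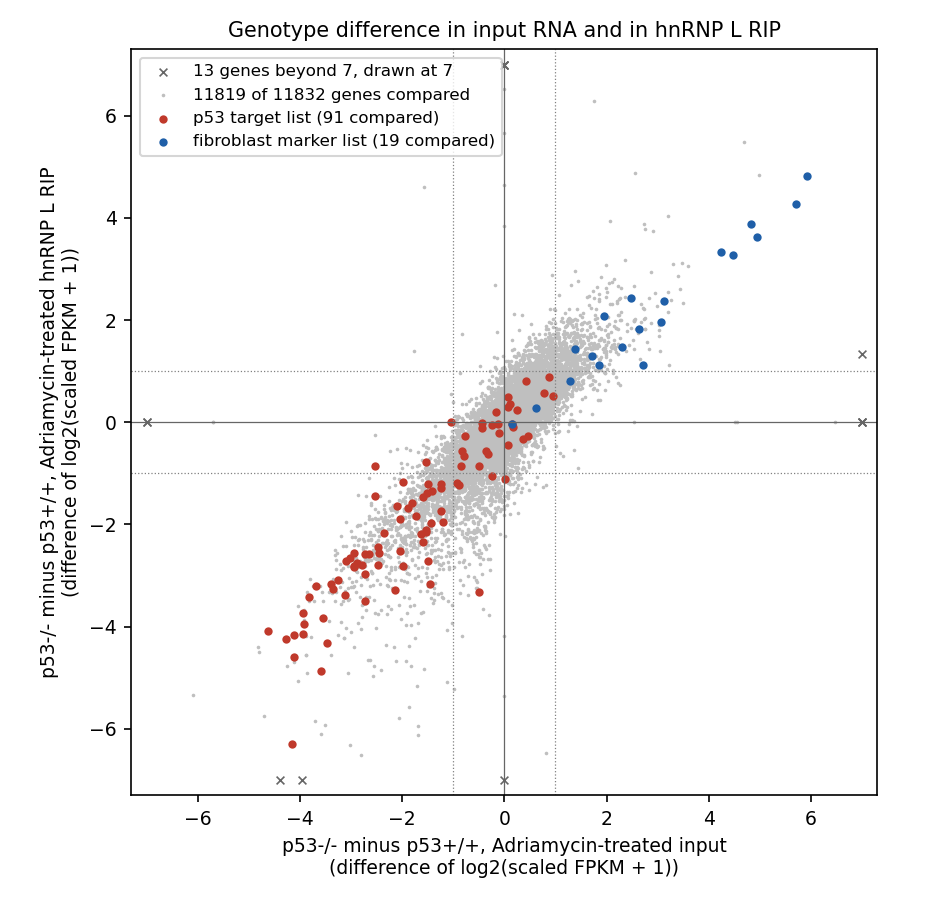
Difference between treated p53-/- and p53+/+ cells in input RNA (x axis) and in hnRNP L RIP (y axis), both as log2(scaled FPKM + 1), 1 point per gene, with 13 genes beyond 7 drawn at the edge. Most genes with a difference of 1 or more in input lie in the same quadrant in RIP.

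The difference also varied by chromosome. The median was 0.29 over 651 genes on chromosome 8, 0.32 over 1030 genes on chromosome 11 and 0.38 over 417 genes on chromosome X, while the other 17 chromosomes lay between -0.13 and 0.19. Of the genes on these chromosomes 15.5%, 14.4% and 17.7% were higher, against 4.36% to 10.4% on the others. Chromosomes 8 and 11 had like medians in untreated input (0.34 and 0.28) and in treated RIP (0.29 and 0.32). Chromosome X had a median of 0.07 in untreated input, where the other 17 chromosomes lay between -0.21 and 0.01. Over eighths of the genes by position, the medians ran from 0.08 to 0.49 on chromosome 11, from -0.03 to 0.53 on chromosome 8 and from 0.18 to 0.59 on chromosome X. Copy number was not measured here.

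**Figure D5:**
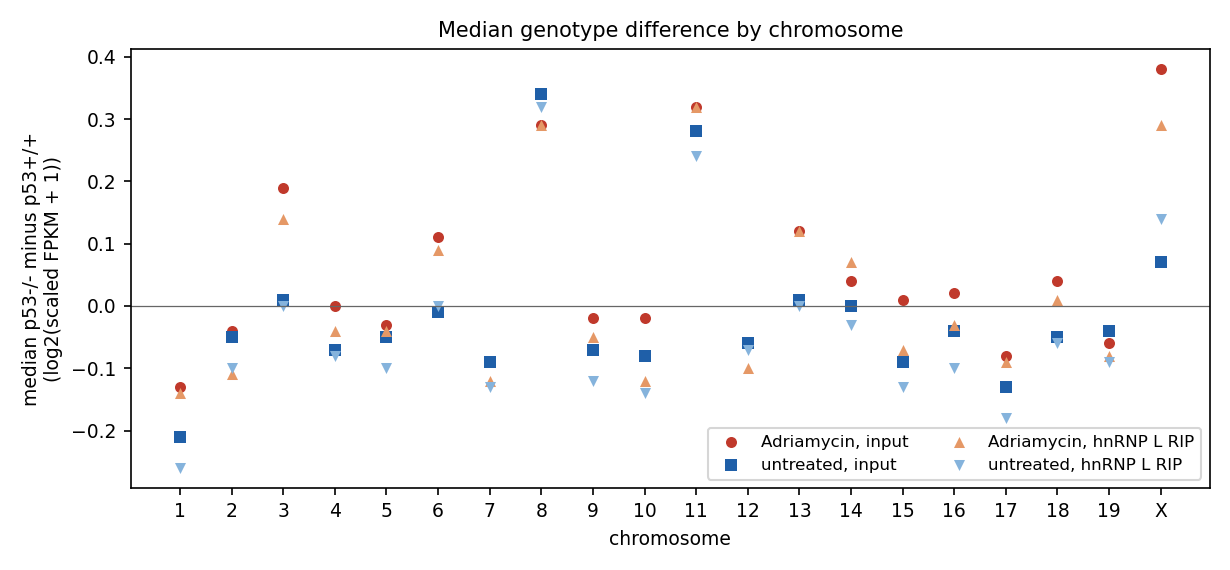
Median difference between p53-/- and p53+/+ over the compared genes of each chromosome, for treated and untreated input and treated and untreated hnRNP L RIP (log2(scaled FPKM + 1)). Chromosomes 8 and 11 lie at 0.24 to 0.34 in all 4 pairs, and chromosome X lies at 0.38 and 0.29 in the treated pairs.

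Within chromosomes, the stretch of 25 neighbouring genes with the highest median was on chromosome X from Fmr1nb to Xlr5c (chrX:66015014-70535854, mm9), at 1.07 in treated and 0.85 in untreated input. It holds the Xlr3, Xlr4 and Xlr5 genes, a lymphoid-regulated family expressed in germ cells, all 9 of which were higher, by 1.85 to 3.20, and also in the untreated and RIP pairs. They are near-identical copies, so the share of each is uncertain. As they make up 9 of the 25 genes, the median of the stretch rests in part on them. The lowest stretch was on chromosome 7 from Fank1 to Fuom, at -0.82 in treated and -0.40 in untreated input.

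The share of higher genes was smaller among long genes. Of 483 genes spanning under 2000 bases of the genome, 12.2% were higher and 10.4% lower, and of 339 genes spanning 200000 bases or more, 2.95% were higher and 14.2% lower. The shares also varied with level: of 1689 genes at a mean of 1 to 2 FPKM, 5.27% were higher and 12.4% lower, of 665 genes at 50 to 100 FPKM, 13.4% were higher and 5.11% lower, and of 636 genes at 100 FPKM or more, 8.96% were higher and 3.93% lower.

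Transcript records of one gene seldom went opposite ways. Of 500 genes with 2 or more records at 5 FPKM or more, 5 had 1 record lower and 1 higher, among them Arrdc4, Commd6, Dynll2 and Schip1. Commd6, a COMM domain gene, had its level almost wholly on different records in the genotypes: in the treated inputs the record of 875 bases had 29.2 FPKM with p53 and 0.453 FPKM without, while the record of 863 bases had 1.51 and 34.2 FPKM. The untreated inputs showed the same split, at 23.1 and 0.519 FPKM and at 0.770 and 30.1 FPKM.

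The bounds that the authors gave for each record describe estimation within 1 library. They did not overlap between the treated inputs for 954 of 960 lower and 697 of 710 higher genes with a single record, but also for 3036 of 4981 genes that differed by less than 0.5, so they say little about differences between cultures.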

How the data were processed

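Poly(A) RNA of mouse ES cells was sequenced in 8 libraries, 1 for each of 8 groups. Per the submitters' processing notes, CASAVA 1.8.2, TopHat, TopHat2 2.0.8 and Cufflinks were used with build mm9; neither their settings nor the FPKM denominator is stated in the sources used. The authors deposited FPKM with bounds, and coverage (a read depth signal), for 30769 transcript records per library, per the file headers. Records with a failed status (0 to 12 a library) were kept. Symbols came from a GRCm38.p6 RefSeq table by accession (30227 records, 98.2%). FPKM were summed per gene, kept at a mean of 1 or above over the 8 libraries, and scaled by median-ratio factors taken over genes above 0 in every library; a pseudocount of 1 was added before log2, which understates changes of low genes. With 1 library a group nothing was tested, and a difference of 1 is a cutoff of size. Depth is coverage times record length, since reads were not counted in the files, and it limits the precision of low genes. The scaling was checked on simulated data with few changed genes, as many raised as lowered. That setting does not cover the larger and uneven number of differing genes found here.

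Named genes are the 15 largest differences in each direction with 5 FPKM or more (scaled) in the higher library and 1 or more the same way in treated RIP, short noncoding RNAs left out, then the 8 largest of sets defined by the untreated difference, genes with opposite differences, the most different members of each list, and Trp53, Mdm2, Cdkn1a and NR_040692. The comparison, the lists and the members were chosen with earlier results of these data known. A listed symbol that is the current name of a gene without a matching record was left out. Alternatives were other scalings, pseudocounts and filters. Python 3.11.15, numpy 2.4.6, pandas and matplotlib were used. Some genes the rule selects are not reported here.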

Additional observations from a re-analysis of the deposited data

Results flagged for a closer look

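Among genes with 5 FPKM or more in each input pair, 4 differed by 1 or more in opposite directions with and without Adriamycin; with 1 library a group, the difference between the pairs was not tested.

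Sbsn, suprabasin, a secreted epidermal protein gene that is also on the p53 target list, stood (without, then with Adriamycin) at 2.05 and 79.0 FPKM in the p53+/+ pair versus 6.77 and 8.18 in the p53-/- pair, so that its difference was 1.25 without and -3.02 with treatment. Serpine2, protease nexin-1, stood at 8.28 and 120 FPKM against 23.5 and 29.2 FPKM, with differences of 1.36 and -1.94. In both, the p53+/+ level passed the p53-/- level after treatment, and treated RIP gave -2.65 and -2.22.

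Mir703, a microRNA record, was listed at 131 and 0 FPKM in the p53+/+ pair versus 0 and 122 in the p53-/- pair; on the log2(scaled FPKM + 1) scale its differences are -6.65 and 6.46. Snora68, a small nucleolar RNA, was listed at 3737 and 0 FPKM against 1230 and 2292 FPKM, with values of -1.61 and 10.68 on that scale. Both are short records in poly(A) libraries, and of 51 short noncoding genes compared, 13 were higher (25.5%) and 8 lower (15.7%) in treated input, where 7.77% and 10.8% of all genes were. No fold is given against a level of 0.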

How the results depend on the processing

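With 1 library a group, no replicate could be left out. No paired analysis was possible because each group has 1 library. The count of lower genes stayed within 1.5 times of 1279, except that it was 575 with a pseudocount of 5 and 692 with a filter at a mean of 5 FPKM; the count of higher genes, 919, became 1425 with a pseudocount of 0.1 and 371 with a pseudocount of 5. Lower genes made up 52.1% to 61.1% of the differing genes in every alternative run. The median over all genes compared ran from 0 to 0.11. The medians of 4 lists changed sign: interferon and NF-kB genes (-0.07), mesoderm, ectoderm and trophoblast genes (-0.05) and Wnt genes (0.21) under the filter at 5 FPKM, and respiratory chain genes (-0.14) under quantile normalization; Neat1, at 0.19, became -0.01 there. The causes were not tested. Leaving out chromosomes 8, 11 and X, an alternative chosen after seeing the data, gave 1028 lower genes of 9734.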
